A study of Homo sapiens with 12 samples.

Results

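The genes that license replication origins, assemble the helicase and build the replication fork were examined as a set of 49. They were chosen by name, with earlier results of these data known. Their rows were 49 of the 43828 gene places that the 12 libraries list, and all 49 were present in every library and passed the filters on low counts. The cells were CCRF-CEM, a T lymphoblast line from a human leukemia. 4 groups of 3 libraries were used: knockout cells (labelled SLFN11 gene knockout) given 100 nM camptothecin for 4 h, knockout cells given the solvent DMSO, parent cells (SLFN11-positive, labelled wild-type) given 100 nM camptothecin for 4 h, and parent cells given DMSO. No time is stated for DMSO. All cells grew in RPMI1640 with serum. The labels give neither the way the knockout was made nor whether it is a single clone, and they do not say whether replicates were separate cultures, so a p-value here measures no more than the spread between libraries, possibly a technical one.

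A human origin is marked by the origin recognition complex, on which CDC6 and CDT1 load the MCM2-7 helicase before S phase. The kinase CDC7 with DBF4, and then CDC45 and the GINS complex, turn the loaded helicase into a moving fork, where primase and polymerase alpha start each strand, polymerases delta and epsilon extend it on the PCNA clamp, RFC loads that clamp, and RPA coats single-stranded DNA. Camptothecin traps topoisomerase I on DNA, and forks that meet the trapped enzyme stall or break. SLFN11 binds stressed forks through RPA and is known to block them, which is why cells that carry it are sensitive to such drugs. The comparison asks how both genotypes change their RNA from the basal state when forks are stressed.

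Many of these genes are classic targets of the E2F transcription factors, which drive transcription at the entry into S phase. 100 bases from the RefSeq promoters of 8 of them are shown because CDC6, CDT1, GINS2, PCNA and MCM2 rose in both genotypes, GINS3 and PCNA responded by unequal amounts in knockout and parent cells, MCM6 passed in neither, and POLA1 fell in both although its promoter matches too. Capitals mark exact matches to the E2F letters listed below, and each stretch reads 5′ to 3′ along the gene. A site with any other letter stays in lower case.
CDC6: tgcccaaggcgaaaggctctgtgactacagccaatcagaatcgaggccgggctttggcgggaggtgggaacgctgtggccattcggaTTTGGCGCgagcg
CDT1: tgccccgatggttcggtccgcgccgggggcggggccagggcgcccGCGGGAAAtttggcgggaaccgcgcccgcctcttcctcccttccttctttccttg
GINS3: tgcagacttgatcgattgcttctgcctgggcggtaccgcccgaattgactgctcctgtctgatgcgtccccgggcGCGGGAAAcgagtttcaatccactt
GINS2: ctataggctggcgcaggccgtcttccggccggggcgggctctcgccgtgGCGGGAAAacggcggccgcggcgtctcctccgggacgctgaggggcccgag
PCNA: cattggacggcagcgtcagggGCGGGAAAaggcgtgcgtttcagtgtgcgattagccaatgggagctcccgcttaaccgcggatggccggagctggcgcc
MCM2: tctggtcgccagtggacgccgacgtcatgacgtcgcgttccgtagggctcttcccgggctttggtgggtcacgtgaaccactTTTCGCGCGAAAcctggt
MCM6: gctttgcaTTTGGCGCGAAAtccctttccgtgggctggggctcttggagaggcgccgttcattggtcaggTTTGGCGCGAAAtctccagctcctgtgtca
POLA1: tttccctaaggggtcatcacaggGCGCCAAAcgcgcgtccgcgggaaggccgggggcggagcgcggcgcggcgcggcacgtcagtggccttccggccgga
Coordinates are on GRCh38.p14, the build of the RefSeq table, and are not those of the hg19 gene positions given further on. The stretches lie at chr17:40287799-40287898 on the plus strand (CDC6), chr16:88803709-88803808 on the plus strand (CDT1), chr16:58392391-58392490 on the plus strand (GINS3) and chr16:85688935-85689034 on the minus strand (GINS2). The others lie at chr20:5126603-5126702 on the minus strand (PCNA), chr3:127598331-127598430 on the plus strand (MCM2), chr2:135876504-135876603 on the minus strand (MCM6) and chrX:24693758-24693857 on the plus strand (POLA1). MCM6 held 4 matches and MCM2 held 2, in overlapping pairs, and each of the other 6 stretches held 1.

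A promoter window here is 300 bases, 250 before and 50 after an annotated start. The E2F letters searched, on both strands, were TTTCCCGC, TTTGGCGC, TTTGCCGC and TTTCGCGC. They occurred in 21 of the 42 replication genes with a window (50%) and in 3.99% of all gene symbols in the table. Counted by window, 21 of 52 (40.4%) of the replication genes' windows and 3.31% of all 35116 windows held a match. The CHR element, best known from promoters of mitotic genes and searched as TTTGAA or TTCGAA on both strands, occurred in 2 of the 42 genes (4.76%) and in 19.5% of all gene symbols. In knockout cells camptothecin raised exon reads of 13 of the 21 genes with an E2F match and lowered 1 of them. It raised 6 of the 21 genes without a match. Of all genes tested, 7.3% rose and 9.28% fell there. The median log2 change was 0.25 with a match and 0.16 without. In parent cells 14 of the 21 with a match rose and 1 fell, while 8 of the 21 without a match rose and 4 fell. Of all genes tested, 16.8% rose and 17.1% fell in parent cells. The median log2 change was 0.23 with a match and 0.09 without. These are counts of letters and of calls, and medians, with no test between them. Genes without a match can still hold E2F sites of other letters, which were not searched. Calls on other genes of the table with an E2F match were not counted. MCM4, MCM5, GINS4, RECQL4, POLD3, RPA2 and RPA3 had no window in the table.

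Exon reads summed to between 42439957 and 63606344 in 11 libraries and to 135592046 in parent DMSO replicate 1. By the labels all samples were pooled on 1 paired-end run, and the library name of parent DMSO replicate 1 has another pattern than those of the other 11. It differed from the rest of its group: the chi-square per degree of freedom of its exon counts against the other parent DMSO libraries was 172.9 and 136.5, while the other pairs within groups gave 4.713 to 16.91. No pair was as close as sampling noise, so each library counted as 1 sample. Exon reads of SLFN11 itself were between 85.9 and 91.7 CPM (exon reads scaled to a common library size with TMM factors) in the 6 knockout libraries and between 107.4 and 122.9 CPM in the 6 parent libraries, so the targeted gene was lower but still transcribed. Its intron reads went the other way, at 107.6 to 117.9 CPM in the 6 knockout libraries and 70.57 to 74.87 CPM in the 6 parent libraries, and before treatment they were higher in knockout cells by 0.58 ± 0.07 (SE; edgeR adjusted p = 9.43e-07) on the log2 scale. All 10 T lymphoblast markers were at 1 CPM or more in every library. Their summed level was 1260 to 1336 CPM in knockout cells with camptothecin and 1529 to 1537 CPM with DMSO, and 1004 to 1034 CPM in parent cells with camptothecin and 1335 to 1509 CPM with DMSO. Epithelial and fibroblast markers summed to 8.779 to 9.339 CPM and 7.881 to 8.166 CPM in knockout cells with camptothecin and DMSO, and to 2.316 to 3.207 CPM and 1.939 to 2.678 CPM in parent cells. COL1A2 was at 0 in all of them, and the part of these markers in the results was not tested. Myeloid markers summed to at most 1.064 CPM and erythroid markers to at most 0.961 CPM.

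Many more of the replication genes rose than fell with camptothecin, in both genotypes. In knockout cells 23 of the 49 rose and 1 fell at a Benjamini-Hochberg adjusted p below 0.05 over all 23546 genes tested with edgeR, where 7.3% of all genes rose and 9.28% fell. In parent cells 28 rose and 5 fell, where 16.8% of all genes rose and 17.1% fell. The median log2 change was 0.23 in knockout cells (0.02 over all genes) and 0.23 in parent cells (0.01 over all genes), so the typical shift was small. The near equality of the genotypes depended on parent DMSO replicate 1. Without that library the medians were 0.24 in knockout cells and 0.32 in parent cells, against 0.02 and 0.01 over all genes. Together the 49 genes took 0.8249% to 0.8418% of exon reads in knockout cells with camptothecin, against 0.6164% to 0.6301% in knockout cells with DMSO. They took 0.791% to 0.7925% in parent cells with camptothecin, against 0.6159% to 0.6253% in parent cells with DMSO. Groups did not overlap in either genotype. These are shares of exon reads without the TMM factors that CPM uses, so the 2 measures are not on 1 scale. The factors were 1.082 to 1.115 in knockout cells with camptothecin and 0.9744 to 0.9966 with DMSO. In parent cells they were 0.9983 to 1.017 with camptothecin and 0.8679 to 0.955 with DMSO. In bulk RNA, more cells that express a gene and more of its RNA per cell cannot be told apart.

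Between the genotypes, 20 genes rose in both and POLA1 fell in both. How many of all genes rose or fell in both was not counted. CLSPN, POLE2 and TIMELESS rose in knockout cells and did not pass in parent cells. ORC6, POLD3, POLE, RFC2, RFC3, RPA2, TIPIN and CHAF1A rose in parent cells and did not pass in knockout cells, and of all 11 the difference between genotypes itself passed for ORC6. Another 13 passed in neither genotype. All 4 groups share 1 estimate of the spread, so parent DMSO replicate 1 also enters the p-values of knockout cells. Levels of all 3 camptothecin libraries lay above all 3 DMSO libraries in 35 of the 49 genes in knockout cells (18.9% of all genes) and below them in 7 (19.6%). In parent cells they lay above in 29 (22.7% of all genes) and below in 6 (22.1%). Leaving out 1 library at a time gave 18 to 34 risen and 1 to 6 fallen genes in knockout cells, and 24 to 34 risen and 4 to 6 fallen genes in parent cells. Without parent DMSO replicate 1, knockout cells had 34 risen and 6 fallen genes and parent cells had 34 and 4, and without knockout camptothecin replicate 3 knockout cells had 2 fallen genes. Here and below, counts from such other fits stand without the counts over all genes. A shift in them cannot be read as particular to the replication genes. Scaling by library size alone in place of TMM (a factor that assumes most genes are unchanged) gave 37 risen and 1 fallen gene in knockout cells and 36 and 4 in parent cells. It moved the median of all genes to 0.17 in knockout cells and 0.13 in parent cells, and the median of the replication genes to 0.39 and 0.36. The share of all called genes that were higher became 78.7% in knockout cells, against 44.0% with TMM, and 67.3% in parent cells, against 49.7% with TMM.

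**Figure D1:**
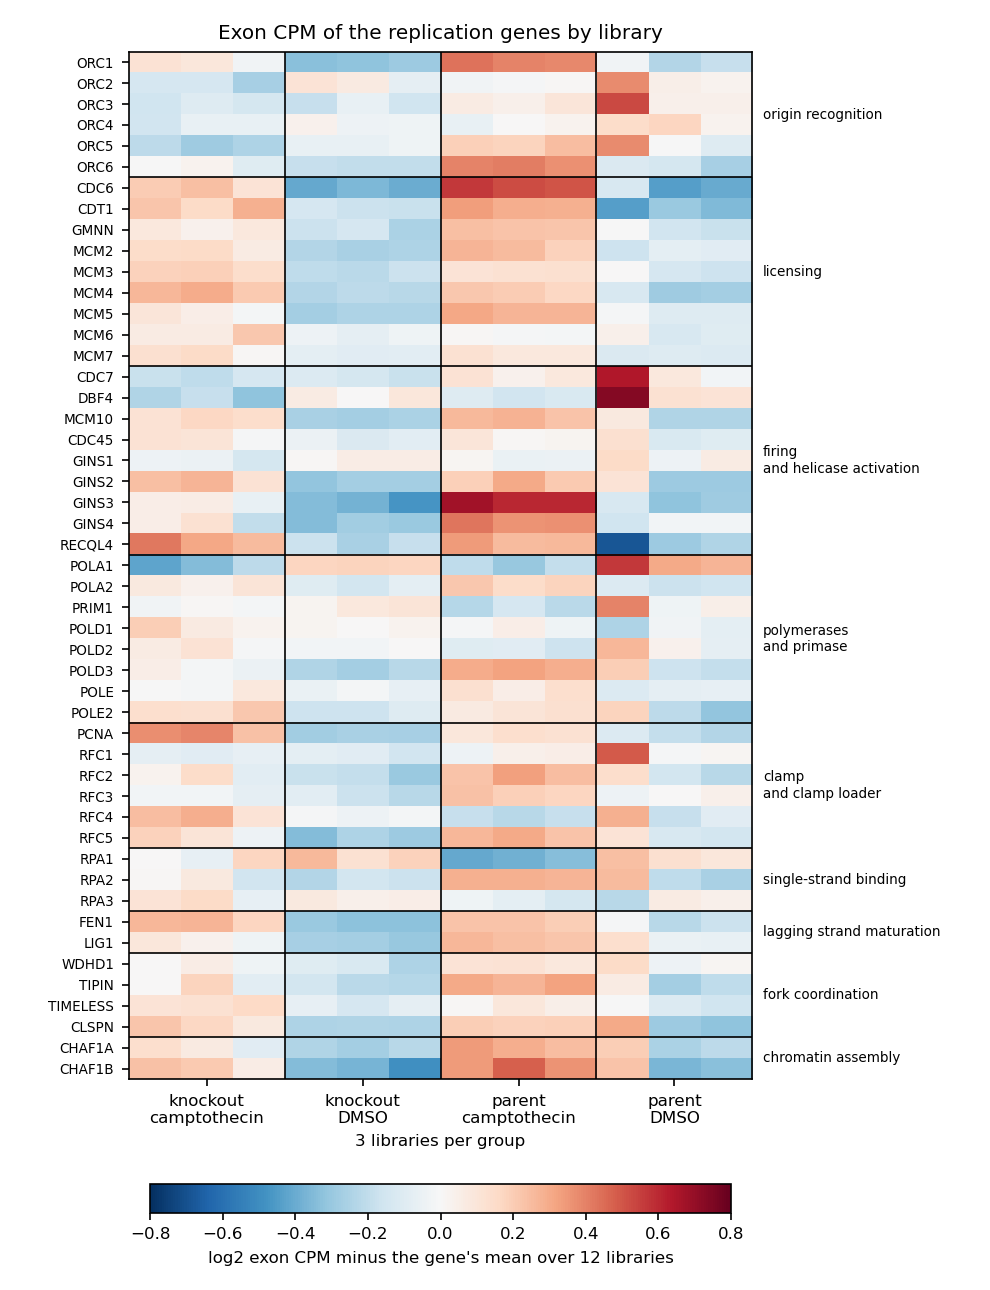
Log2 exon CPM of each of the 49 genes (rows, grouped by role) in each of the 12 libraries (columns, 3 per group), minus the gene's mean over all libraries. Red is above and blue below that mean, and the columns of camptothecin-treated cells are red for most licensing genes, while POLA1 is blue there.

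**Figure D2:**
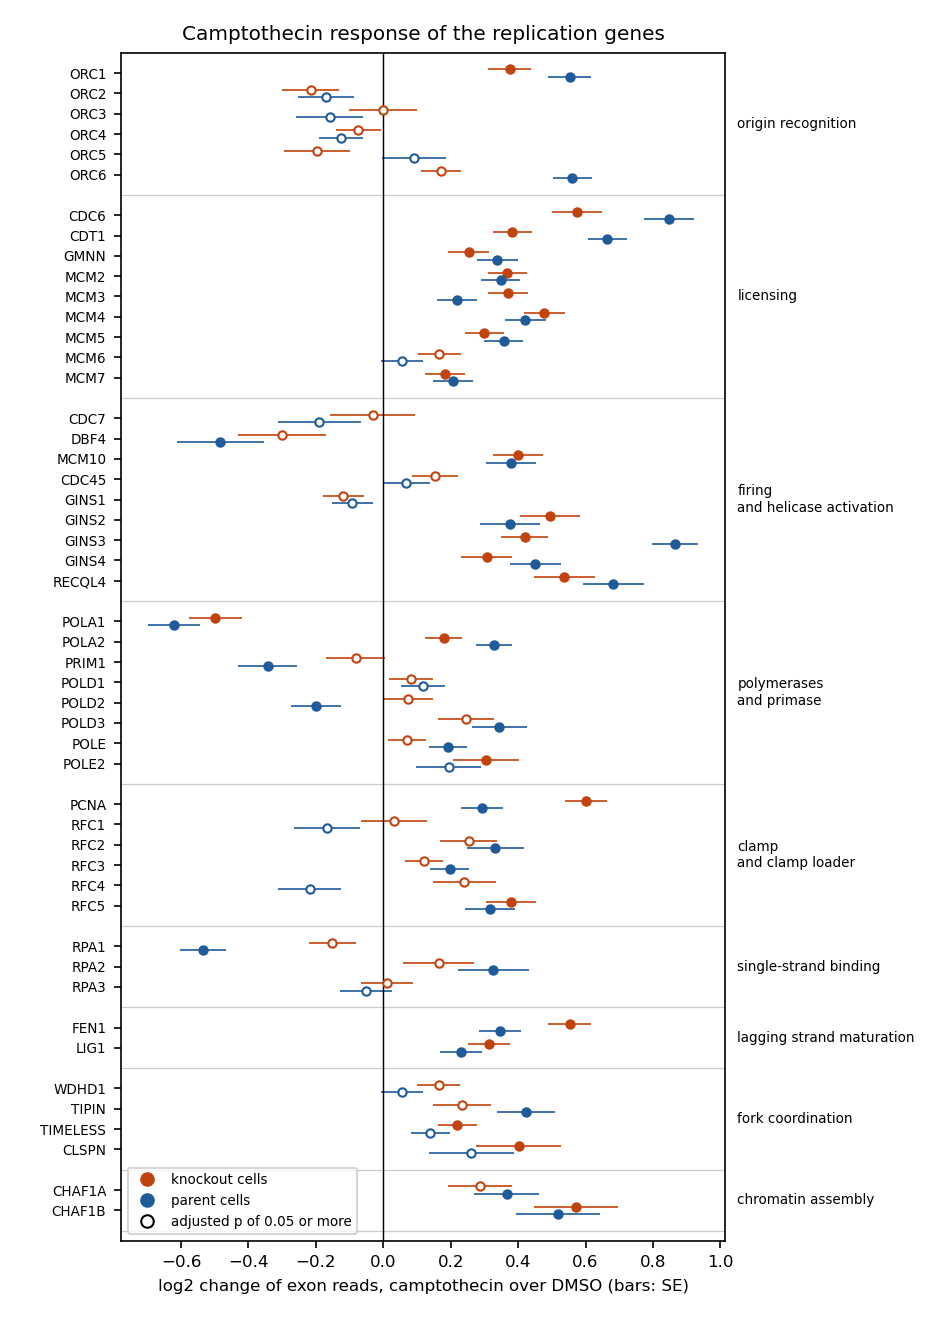
Log2 change of exon reads, camptothecin over DMSO, for each gene in knockout cells (orange) and parent cells (blue), with bars for the SE from the fit. Filled points passed an adjusted p of 0.05. GINS3 at 0.87 in parent cells is the farthest to the right and POLA1 at -0.62 the farthest to the left.

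Of the licensing factors, 8 of 9 rose in knockout cells and 8 of 9 in parent cells, where 7.3% and 16.8% of all genes rose. Their median log2 changes were 0.37 and 0.35. Role groups hold 2 to 9 genes, so their counts are not on 1 scale, and both lagging-strand genes rose in both genotypes. CDC6, the ATPase that loads the helicase (hg19 chromosome 17, 38443884 to 38459170), had 159.1, 163.8 and 149.6 exon CPM in knockout cells with camptothecin, against 104.3, 107.8 and 105.1 exon CPM in knockout cells with DMSO. In parent cells it had 205.0, 198.7 and 196.0 exon CPM with camptothecin, against 126.7, 101.8 and 104.6 exon CPM with DMSO. Treated libraries were above untreated ones in both, and the treated parent libraries were the highest of all 4 groups. CDC6 rose 1.49-fold in knockout cells, a log2 change of 0.57 ± 0.07 (SE; edgeR adjusted p = 3.38e-05), and 1.8-fold in parent cells, 0.85 ± 0.07 (SE; edgeR adjusted p = 1.63e-07). CDT1, its partner in loading (hg19 chromosome 16, 88869620 to 88875665), had 147.3, 140.1 and 153.5 exon CPM in knockout cells with camptothecin, against 114.7, 111.9 and 111.6 exon CPM in knockout cells with DMSO. In parent cells with camptothecin it had 158.6, 154.2 and 153.7 exon CPM, against 93.0, 102.8 and 98.7 exon CPM in parent cells with DMSO. Groups did not overlap in either genotype, and the untreated knockout libraries were above the untreated parent ones. CDT1 rose by a log2 change of 0.38 ± 0.06 (SE; edgeR adjusted p = 0.000182) in knockout cells and 0.66 ± 0.06 (SE; edgeR adjusted p = 1.63e-07) in parent cells. GMNN, which encodes geminin, the inhibitor of CDT1, rose by 0.25 ± 0.06 (SE; edgeR adjusted p = 0.00813) in knockout cells and 0.34 ± 0.06 (SE; edgeR adjusted p = 0.000332) in parent cells. The knockout call on GMNN was lost without knockout DMSO replicate 3. Counted over the whole gene, introns included, GMNN changed by 0.18 in knockout cells (edgeR adjusted p = 0.0896) and 0.13 in parent cells (edgeR adjusted p = 0.171).

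Of the 6 genes for the MCM2-7 helicase, 5 rose in both genotypes. MCM2 (hg19 chromosome 3, 127317065 to 127341275) had 458.5, 460.1 and 432.0 exon CPM in knockout cells with camptothecin, against 351.7, 345.7 and 349.3 exon CPM in knockout cells with DMSO. In parent cells MCM2 had 499.7, 492.8 and 470.2 exon CPM with camptothecin, against 368.2, 392.3 and 387.9 exon CPM with DMSO. Every treated library was above every untreated one of its genotype. MCM2 rose by 0.37 ± 0.06 (SE; edgeR adjusted p = 0.00026) on the log2 scale in knockout cells and 0.35 ± 0.06 (SE; edgeR adjusted p = 0.000158) in parent cells. MCM5 had 410.9, 398.6 and 380.6 exon CPM in knockout cells with camptothecin, against 318.1, 324.1 and 324.5 exon CPM in knockout cells with DMSO. In parent cells MCM5 had 477.3, 464.7 and 464.1 exon CPM with camptothecin, against 382.1, 357.9 and 358.0 exon CPM with DMSO. Treated MCM5 libraries were above the untreated ones of their genotype, with treated parent libraries the highest and untreated knockout libraries the lowest. MCM5 rose by 0.30 ± 0.06 (SE; edgeR adjusted p = 0.00149) in knockout cells and 0.36 ± 0.06 (SE; edgeR adjusted p = 0.000118) in parent cells. MCM4 rose by 0.48 ± 0.06 (SE; edgeR adjusted p = 2.83e-05) and 0.42 ± 0.06 (SE; edgeR adjusted p = 3.86e-05), MCM3 by 0.37 (edgeR adjusted p = 0.000306) and 0.22 (edgeR adjusted p = 0.0082), each in knockout and then parent cells. MCM7 rose by 0.18 (edgeR adjusted p = 0.0422) in knockout cells, a call lost in 10 of the 12 fits that left out 1 library each, and by 0.21 (edgeR adjusted p = 0.0109) in parent cells, lost without parent camptothecin replicate 1. Without parent DMSO replicate 1 the knockout change of MCM7 was 0.19 (edgeR adjusted p = 0.000465). The parent call on MCM3 was lost without parent DMSO replicate 3. MCM6, whose promoter stretch held the most matches, gave 0.17 (edgeR adjusted p = 0.0848) in knockout cells and 0.06 (edgeR adjusted p = 0.548) in parent cells, and neither passed.

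Origin recognition genes divided: of 6, ORC1 rose in knockout cells, and ORC1 and ORC6 rose in parent cells, while the median of the 6 was -0.04 in knockout cells and -0.02 in parent cells. ORC1, the subunit whose level oscillates with the cell cycle (hg19 chromosome 1, 52838500 to 52870130), had 126.4, 124.2 and 114.7 exon CPM in knockout cells with camptothecin, against 92.8, 93.5 and 95.4 exon CPM in knockout cells with DMSO. In parent cells ORC1 had 158.1, 154.2 and 152.7 exon CPM with camptothecin, against 114.7, 99.5 and 102.7 exon CPM with DMSO. Treated groups lay above the untreated ones of their genotype, and the treated parent libraries were the highest. ORC1 rose by 0.38 ± 0.06 (SE; edgeR adjusted p = 0.000498) in knockout cells and 0.55 ± 0.06 (SE; edgeR adjusted p = 3.48e-06) in parent cells. ORC6 (hg19 chromosome 16, 46723554 to 46732305), the smallest subunit, had 65.2, 66.8 and 61.3 exon CPM in knockout cells with camptothecin, against 57.5, 57.0 and 57.1 exon CPM in knockout cells with DMSO. In parent cells ORC6 had 86.2, 86.8 and 84.2 exon CPM with camptothecin, against 60.5, 59.2 and 54.5 exon CPM with DMSO. All treated libraries were above the untreated ones, by much less in knockout cells. ORC6 changed by 0.17 ± 0.06 (SE; edgeR adjusted p = 0.0555) in knockout cells, which did not pass, and rose by 0.56 ± 0.06 (SE; edgeR adjusted p = 1.2e-06) in parent cells. ORC2, ORC3, ORC4 and ORC5 passed in neither, with log2 changes of -0.22 to 0.00 in knockout cells and -0.17 to 0.09 in parent cells.

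Among the 9 genes that fire origins and activate the helicase, 5 rose in knockout cells, and in parent cells 5 rose and DBF4 fell. GINS3, one of the 4 GINS subunits (hg19 chromosome 16, 58328983 to 58440047), had 38.0, 38.1 and 35.0 exon CPM in knockout cells with camptothecin, against 28.7, 28.1 and 26.3 exon CPM in knockout cells with DMSO. In parent cells GINS3 had 58.2, 55.4 and 55.4 exon CPM with camptothecin, against 33.4, 29.2 and 30.0 exon CPM with DMSO. Both treated groups were above their untreated ones, and the treated parent libraries stood far above the other 9. GINS3 rose 1.34-fold in knockout cells, 0.42 ± 0.07 (SE; edgeR adjusted p = 0.000374) on the log2 scale, and 1.82-fold in parent cells, 0.87 ± 0.07 (SE; edgeR adjusted p = 4.72e-08). GINS2 (hg19 chromosome 16, 85709803 to 85723678) had 74.9, 76.9 and 68.7 exon CPM in knockout cells with camptothecin, against 51.03, 52.7 and 52.7 exon CPM in knockout cells with DMSO. In parent cells GINS2 had 72.6, 78.2 and 73.3 exon CPM with camptothecin, against 68.5, 51.96 and 52.1 exon CPM with DMSO. Groups did not overlap, and parent DMSO replicate 1 was the highest untreated library. GINS2 rose by 0.49 ± 0.09 (SE; edgeR adjusted p = 0.000891) in knockout cells and 0.38 ± 0.09 (SE; edgeR adjusted p = 0.00324) in parent cells. GINS4 rose by 0.31 ± 0.08 (SE; edgeR adjusted p = 0.01) in knockout cells and 0.45 ± 0.08 (SE; edgeR adjusted p = 0.000164) in parent cells. No more than 1093 of the 5475 exon bases of GINS4 are free of other genes, so its counts are uncertain. With reads from those bases alone its knockout change was 0.33 and did not pass (edgeR adjusted p = 0.286). The knockout call was also lost without knockout camptothecin replicates 1 or 2 or knockout DMSO replicate 1. GINS1 passed in neither genotype, with -0.12 (edgeR adjusted p = 0.219) in knockout cells and -0.09 (edgeR adjusted p = 0.276) in parent cells.

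RECQL4, a helicase that takes part in origin firing, had 127.0, 117.7 and 113.3 exon CPM in knockout cells with camptothecin, against 84.1, 79.1 and 83.4 exon CPM in knockout cells with DMSO. In parent cells RECQL4 had 120.1, 113.2 and 113.8 exon CPM with camptothecin, against 59.0, 77.4 and 80.2 exon CPM with DMSO. Treated libraries were higher throughout, and parent DMSO replicate 1 was the lowest of the 12. RECQL4 rose by 0.54 ± 0.09 (SE; edgeR adjusted p = 0.00048) in knockout cells and 0.68 ± 0.09 (SE; edgeR adjusted p = 1.64e-05) in parent cells. MCM10, which helps the assembled helicase to start (hg19 chromosome 10, 13203553 to 13253103), had 145.4, 151.0 and 147.9 exon CPM in knockout cells with camptothecin, against 112.4, 111.2 and 112.9 exon CPM in knockout cells with DMSO. In parent cells MCM10 had 160.7, 162.7 and 157.3 exon CPM with camptothecin, against 142.1, 113.6 and 113.9 exon CPM with DMSO. All treated libraries were above all untreated ones of their genotype, and parent DMSO replicate 1 was again apart from its group. MCM10 rose by 0.40 ± 0.07 (SE; edgeR adjusted p = 0.0011) in knockout cells and 0.38 ± 0.07 (SE; edgeR adjusted p = 0.000707) in parent cells. DBF4, the activating subunit of the CDC7 kinase (hg19 chromosome 7, 87505530 to 87538855), had 61.2, 63.6 and 58.0 exon CPM in knockout cells with camptothecin, against 75.7, 72.4 and 77.0 exon CPM in knockout cells with DMSO. In parent cells DBF4 had 67.3, 65.1 and 66.4 exon CPM with camptothecin, against 120.6, 78.8 and 78.1 exon CPM with DMSO. Treated libraries were the lower ones in both genotypes, and parent DMSO replicate 1 was well above every other library. DBF4 fell by 0.48 ± 0.13 (SE; edgeR adjusted p = 0.0106) in parent cells and changed by -0.30 ± 0.13 (SE; edgeR adjusted p = 0.148) in knockout cells, which did not pass. The knockout SE rests on the spread shared by all 4 groups, parent DMSO replicate 1 included. Without parent DMSO replicate 1 the parent change of DBF4 was -0.24 (edgeR adjusted p = 0.000144). CDC45 and CDC7 passed in neither genotype, with CDC45 at 0.15 (edgeR adjusted p = 0.15) and 0.07 (edgeR adjusted p = 0.491) in knockout and parent cells, and CDC7 at -0.03 (edgeR adjusted p = 0.907) and -0.19 (edgeR adjusted p = 0.272).

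Polymerases and primase were mixed. POLA1, the catalytic subunit of polymerase alpha (hg19 chromosome X, 24712035 to 25015102), had 68.0, 71.6 and 78.8 exon CPM in knockout cells with camptothecin, against 102.7, 103.2 and 102.5 exon CPM in knockout cells with DMSO. In parent cells POLA1 had 79.0, 74.0 and 79.9 exon CPM with camptothecin, against 134.9, 112.5 and 110.1 exon CPM with DMSO. It was lower in every treated library, and parent DMSO replicate 1 was the highest. POLA1 fell by 0.50 ± 0.08 (SE; edgeR adjusted p = 0.000227) in knockout cells, 1.41-fold, and by 0.62 ± 0.08 (SE; edgeR adjusted p = 8.51e-06) in parent cells, 1.54-fold. When reads over the whole gene were counted, introns included, the knockout change of POLA1 was 0.03 (edgeR adjusted p = 0.867). POLA2, the accessory subunit of the same enzyme, rose by 0.18 (edgeR adjusted p = 0.0314) in knockout cells, a call lost in 9 of 12 fits that left out a library, and by 0.33 (edgeR adjusted p = 0.000141) in parent cells. The knockout change of POLA2 without parent DMSO replicate 1 was 0.18 (edgeR adjusted p = 0.000579). PRIM1, the catalytic primase subunit (hg19 chromosome 12, 57125379 to 57146156), had 42.4, 43.6 and 42.8 exon CPM in knockout cells with camptothecin, against 44.0, 45.9 and 46.5 exon CPM in knockout cells with DMSO. In parent cells PRIM1 had 37.0, 39.5 and 37.4 exon CPM with camptothecin, against 57.0, 42.23 and 44.8 exon CPM with DMSO. Groups did not overlap, but the parent gap was widest to DMSO replicate 1. PRIM1 changed by -0.08 ± 0.09 (SE; edgeR adjusted p = 0.609) in knockout cells, which did not pass, and fell by 0.34 ± 0.09 (SE; edgeR adjusted p = 0.00553) in parent cells, or -0.19 (edgeR adjusted p = 0.00427) without parent DMSO replicate 1.

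Of the polymerase delta genes, POLD2 fell and POLD3 rose in parent cells. POLD2, a regulatory subunit (hg19 chromosome 7, 44154285 to 44163956), had 165.7, 171.9 and 157.5 exon CPM in knockout cells with camptothecin, against 155.8, 156.0 and 158.5 exon CPM in knockout cells with DMSO. In parent cells POLD2 had 148.1, 148.9 and 141.2 exon CPM with camptothecin, against 190.2, 162.2 and 150.7 exon CPM with DMSO. The knockout groups overlapped and the parent ones did not. POLD2 changed by 0.07 ± 0.07 (SE; edgeR adjusted p = 0.572) in knockout cells and fell by 0.20 ± 0.07 (SE; edgeR adjusted p = 0.0449) in parent cells. That parent call was lost in 10 of the 12 fits that left out 1 library, among them the one without parent DMSO replicate 1, where the change was -0.10 (edgeR adjusted p = 0.109). POLD3 rose by 0.34 (edgeR adjusted p = 0.00347) in parent cells and gave 0.25 (edgeR adjusted p = 0.0521) in knockout cells. POLD1, the catalytic subunit, passed in neither, with 0.08 (edgeR adjusted p = 0.462) in knockout cells and 0.12 (edgeR adjusted p = 0.19) in parent cells. For polymerase epsilon, the catalytic subunit gene POLE rose by 0.19 (edgeR adjusted p = 0.0135) in parent cells, a call lost without parent camptothecin replicate 1 or 3, and gave 0.07 (edgeR adjusted p = 0.464) in knockout cells. POLE2 rose by 0.30 (edgeR adjusted p = 0.0411) in knockout cells, lost in 9 of 12 fits that left out a library, and gave 0.19 (edgeR adjusted p = 0.138) in parent cells. Its knockout change without parent DMSO replicate 1 was 0.31 (edgeR adjusted p = 4.73e-05).

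PCNA, the sliding clamp (hg19 chromosome 20, 5095598 to 5107271), had 744.8, 756.6 and 677.5 exon CPM in knockout cells with camptothecin, against 475.6, 481.3 and 480.4 exon CPM in knockout cells with DMSO. In parent cells PCNA had 614.0, 632.4 and 628.0 exon CPM with camptothecin, against 534.4, 504.8 and 490.7 exon CPM with DMSO. Treated libraries were above untreated ones in both, and the 3 treated knockout libraries were the highest of all 12. PCNA rose 1.52-fold in knockout cells, 0.60 ± 0.06 (SE; edgeR adjusted p = 2.98e-06) on the log2 scale, and 1.23-fold in parent cells, 0.29 ± 0.06 (SE; edgeR adjusted p = 0.00137). Of the 5 genes for RFC, the clamp loader, RFC5 rose in knockout cells, and RFC2, RFC3 and RFC5 rose in parent cells. RFC5 (hg19 chromosome 12, 118451392 to 118470934) had 99.8, 94.6 and 85.6 exon CPM in knockout cells with camptothecin, against 69.2, 74.1 and 72.0 exon CPM in knockout cells with DMSO. In parent cells RFC5 had 105.9, 108.5 and 103.1 exon CPM with camptothecin, against 95.0, 80.6 and 79.3 exon CPM with DMSO. Treated libraries were higher in both genotypes without overlap. RFC5 rose by 0.38 ± 0.07 (SE; edgeR adjusted p = 0.00185) in knockout cells and 0.32 ± 0.07 (SE; edgeR adjusted p = 0.00317) in parent cells. RFC4 (hg19 chromosome 3, 186507668 to 186524846) had 84.2, 86.7 and 76.2 exon CPM in knockout cells with camptothecin, against 70.3, 68.8 and 70.1 exon CPM in knockout cells with DMSO. In parent cells RFC4 had 62.2, 60.7 and 62.2 exon CPM with camptothecin, against 86.3, 62.2 and 66.6 exon CPM with DMSO. The treated knockout libraries were above the untreated ones, while the parent groups overlapped: treated RFC4 was close to DMSO replicates 2 and 3 and well below DMSO replicate 1. RFC4 changed by 0.24 ± 0.09 (SE; edgeR adjusted p = 0.0922) in knockout cells and by -0.22 ± 0.09 (SE; edgeR adjusted p = 0.0808) in parent cells, and neither passed. RFC2 rose by 0.33 (edgeR adjusted p = 0.00546) and RFC3 by 0.20 (edgeR adjusted p = 0.0125) in parent cells, the RFC3 call being lost without parent camptothecin replicate 1. RFC1, the large subunit, passed in neither, with 0.03 (edgeR adjusted p = 0.879) in knockout cells and -0.17 (edgeR adjusted p = 0.217) in parent cells.

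Of the 3 RPA genes, RPA1 fell and RPA2 rose in parent cells. RPA1, the large DNA-binding subunit (hg19 chromosome 17, 1732995 to 1803375), had 121.0, 115.3 and 135.9 exon CPM in knockout cells with camptothecin, against 144.8, 131.2 and 137.2 exon CPM in knockout cells with DMSO. In parent cells RPA1 had 90.9, 92.6 and 95.1 exon CPM with camptothecin, against 142.8, 131.9 and 128.7 exon CPM with DMSO. The parent groups were far apart with the treated libraries lower, and the knockout groups overlapped. RPA1 fell 1.45-fold in parent cells, by 0.53 ± 0.07 (SE; edgeR adjusted p = 1.25e-05) on the log2 scale, and changed by -0.15 ± 0.07 (SE; edgeR adjusted p = 0.16) in knockout cells, which did not pass. RPA2 rose by 0.33 (edgeR adjusted p = 0.0243) in parent cells, a call lost in 5 of 12 fits that left out a library, and gave 0.17 (edgeR adjusted p = 0.34) in knockout cells. The parent change of RPA2 without parent DMSO replicate 1 was 0.51 (edgeR adjusted p = 5.13e-09). RPA3, the smallest subunit, gave 0.01 (edgeR adjusted p = 0.947) in knockout cells and -0.05 (edgeR adjusted p = 0.672) in parent cells.

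Both lagging-strand enzymes rose in both genotypes. FEN1, the flap endonuclease (hg19 chromosome 11, 61560108 to 61564715), had 270.9, 271.8 and 253.8 exon CPM in knockout cells with camptothecin, against 183.5, 179.6 and 179.9 exon CPM in knockout cells with DMSO. In parent cells FEN1 had 263.9, 264.2 and 258.0 exon CPM with camptothecin, against 224.3, 193.3 and 200.3 exon CPM with DMSO. Treated libraries were above untreated ones throughout. FEN1 rose by 0.55 ± 0.06 (SE; edgeR adjusted p = 8.56e-06) in knockout cells and 0.35 ± 0.06 (SE; edgeR adjusted p = 0.000358) in parent cells. Because 177 of its 2478 exon bases are free of other genes, FEN1 reads can include those of its neighbours. LIG1, the ligase that seals nicks between Okazaki fragments (hg19 chromosome 19, 48618701 to 48673859), had 165.3, 158.9 and 151.1 exon CPM in knockout cells with camptothecin, against 128.9, 128.3 and 125.6 exon CPM in knockout cells with DMSO. In parent cells LIG1 had 186.3, 183.4 and 180.8 exon CPM with camptothecin, against 170.1, 149.7 and 148.9 exon CPM with DMSO. Groups did not overlap, and all knockout levels with DMSO were below all parent ones. LIG1 rose by 0.31 ± 0.06 (SE; edgeR adjusted p = 0.00205) in knockout cells and 0.23 ± 0.06 (SE; edgeR adjusted p = 0.00787) in parent cells.

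Chromatin assembly factor 1 puts histones on new DNA behind the fork. CHAF1B, its middle subunit (hg19 chromosome 21, 37757675 to 37791312), had 56.5, 55.8 and 50.16 exon CPM in knockout cells with camptothecin, against 37.9, 37.2 and 34.2 exon CPM in knockout cells with DMSO. In parent cells CHAF1B had 61.1, 67.1 and 61.8 exon CPM with camptothecin, against 56.4, 37.4 and 38.3 exon CPM with DMSO. Every treated library was higher than every untreated one of its genotype, with parent DMSO replicate 1 closest to the treated ones. CHAF1B rose by 0.57 ± 0.13 (SE; edgeR adjusted p = 0.00606) in knockout cells and 0.52 ± 0.12 (SE; edgeR adjusted p = 0.00477) in parent cells. CHAF1A rose by 0.37 (edgeR adjusted p = 0.00676) in parent cells and gave 0.29 (edgeR adjusted p = 0.0518) in knockout cells. Of the fork coordination genes, CLSPN, the adaptor that passes the checkpoint signal to CHK1, rose by 0.40 (edgeR adjusted p = 0.0437) in knockout cells, a call lost in 9 of 12 fits that left out a library, and gave 0.26 (edgeR adjusted p = 0.129) in parent cells, where DMSO replicate 1 was at 167.5 CPM and replicates 2 and 3 at 111.1 and 108.7 CPM. Without parent DMSO replicate 1 the knockout change of CLSPN was 0.41 (edgeR adjusted p = 1.88e-09). TIMELESS rose by 0.22 (edgeR adjusted p = 0.0153) in knockout cells, lost without knockout DMSO replicate 2, and gave 0.14 (edgeR adjusted p = 0.0764) in parent cells. TIPIN, its partner in the fork protection complex, rose by 0.42 (edgeR adjusted p = 0.000938) in parent cells and gave 0.23 (edgeR adjusted p = 0.0785) in knockout cells. WDHD1, which ties polymerase alpha to the helicase, passed in neither, with 0.16 (edgeR adjusted p = 0.0902) in knockout cells and 0.06 (edgeR adjusted p = 0.553) in parent cells.

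**Figure D3:**
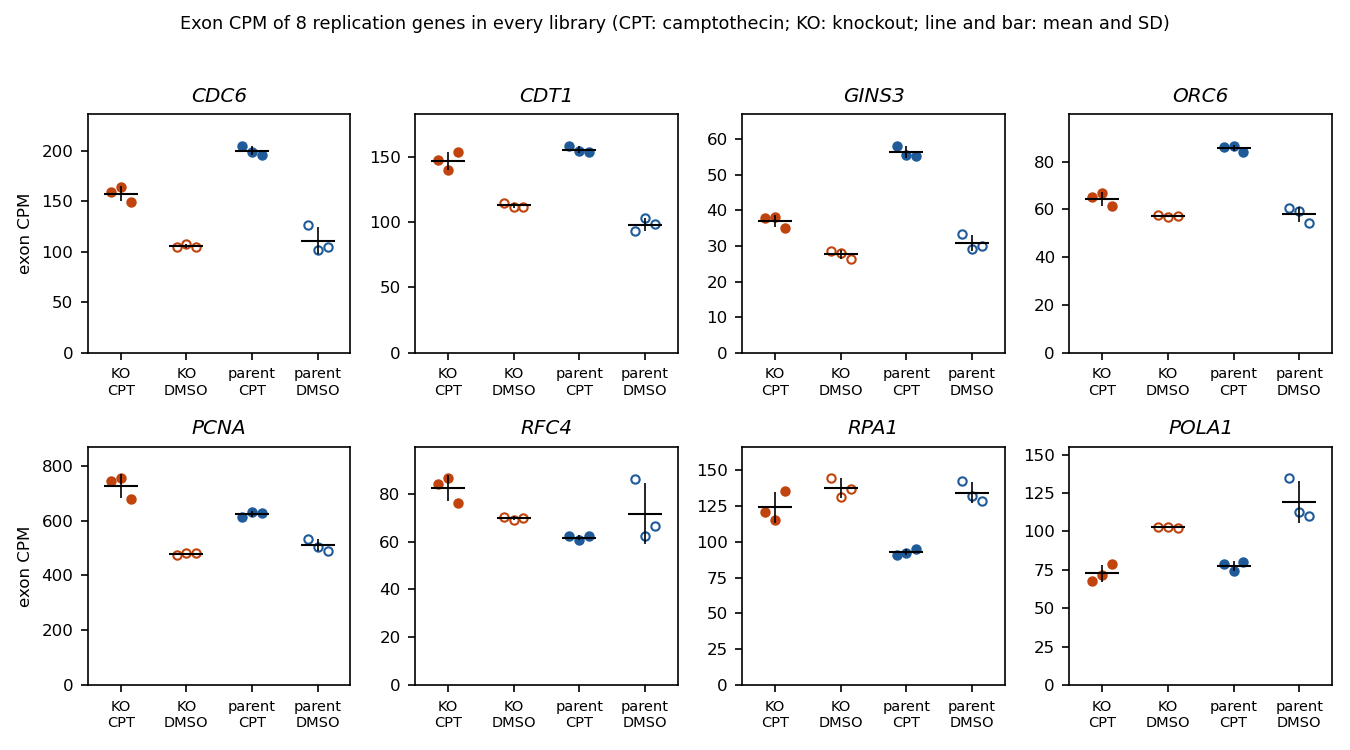
Exon CPM of 8 genes in every library (points), with the group mean and SD (line and bar); filled points had camptothecin and open points DMSO, orange is knockout and blue is parent. PCNA is highest in knockout cells with camptothecin (677.5 to 756.6 CPM), and RPA1 is lowest in parent cells with camptothecin (90.9 to 95.1 CPM).

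The response itself differed between genotypes for 5 of the 49 genes, by the interaction term of the same fit (knockout response minus parent response): PCNA, RFC4 and RPA1 were higher, where 1.84% of all genes were, and ORC6 and GINS3 were lower, where 4.47% were. GINS3 responded less in knockout cells, with a difference of -0.45 ± 0.10 (SE; edgeR adjusted p = 0.0092) on the log2 scale, and so did ORC6, with -0.39 ± 0.08 (SE; edgeR adjusted p = 0.0085). Neither call was lost in any of the 12 fits that left out 1 library. RPA1 differed by 0.38 ± 0.10 (SE; edgeR adjusted p = 0.0252), and the call was lost in 5 of those 12 fits. Without parent DMSO replicate 1 it was 0.34 (edgeR adjusted p = 0.00114). RFC4 differed by 0.46 ± 0.13 (SE; edgeR adjusted p = 0.047), lost in 8 of 12 fits, and by 0.30 (edgeR adjusted p = 0.00212) without parent DMSO replicate 1. PCNA differed by 0.31 ± 0.09 (SE; edgeR adjusted p = 0.0464), lost in 9 of 12 fits, and by 0.28 (edgeR adjusted p = 0.00198) without parent DMSO replicate 1. With reads over the whole gene the calls on PCNA (edgeR adjusted p = 0.152) and RFC4 (edgeR adjusted p = 0.051) were lost, and PCNA also with no filter on low counts (edgeR adjusted p = 0.0922). CDT1 was just outside with -0.28 (edgeR adjusted p = 0.0507). Leaving out 1 library gave 0 to 4 genes higher and 2 to 10 lower, the 10 being without parent DMSO replicate 1. The count of higher genes was 1 without knockout camptothecin replicate 1 or 2 or knockout DMSO replicate 1, and 0 without knockout DMSO replicate 2 or 3 or any of the 3 parent camptothecin libraries. The median difference over the 49 genes was 0.05, against 0.02 over all genes. Without parent DMSO replicate 1 it turned to -0.05, with 19 of the 49 genes above 0 in place of 27, and it was 0.02 without knockout camptothecin replicate 1 or 2 and 0.03 without knockout DMSO replicate 3, parent DMSO replicate 2 or parent camptothecin replicate 1, and 0.09 without parent DMSO replicate 3. With library size alone 5 genes were higher and 2 lower, and 46.3% of all called genes were higher, against 29.2% with TMM.

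Before treatment the knockout and parent cells differed for 8 of the 49 genes: CDT1 was higher, where 8.26% of all genes were, and CDC7, ORC3, LIG1, RFC5, GINS4, WDHD1 and MCM5 were lower, where 7.44% were. The median log2 difference was -0.13 over the 49 genes and -0.01 over all genes. Without parent DMSO replicate 1 the median of the 49 was 0.00, with 23 genes above 0 in place of 10, and scaled by library size alone it was -0.04, against 0.08 over all genes. All 3 knockout DMSO libraries lay above all 3 parent DMSO ones in 4 genes (16.1% of all genes) and below them in 19 (16.3% of all genes). LIG1 had 128.9, 128.3 and 125.6 exon CPM in knockout cells with DMSO, against 170.1, 149.7 and 148.9 exon CPM in parent cells with DMSO. It was lower in every knockout library, by 0.29 ± 0.06 (SE; edgeR adjusted p = 0.00362) on the log2 scale, and the call held in all 12 fits that left out 1 library. CDT1 had 114.7, 111.9 and 111.6 exon CPM in knockout cells with DMSO, against 93.0, 102.8 and 98.7 exon CPM in parent cells with DMSO. It was higher by 0.20 ± 0.06 (SE; edgeR adjusted p = 0.0265) and lost in 4 of 12 fits, those without knockout DMSO replicates 1, 2 or 3 or parent DMSO replicate 3.

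None of the other untreated calls held in all 12 fits that left out 1 library. CDC7, the kinase that fires origins (hg19 chromosome 1, 91966407 to 91991320), had 32.0, 31.2 and 30.5 exon CPM in knockout cells with DMSO, against 53.6, 36.4 and 34.0 exon CPM in parent cells with DMSO. With camptothecin CDC7 had 30.4, 30.0 and 31.3 exon CPM in knockout cells and 37.3, 35.3 and 36.5 exon CPM in parent cells. Parent DMSO replicate 1 stood far above the other 11 libraries. CDC7 was lower by 0.41 ± 0.12 (SE; edgeR adjusted p = 0.038), or -0.17 (edgeR adjusted p = 0.0305) without that library. ORC3 had 33.0, 36.0 and 33.5 exon CPM in knockout cells with DMSO, against 54.01, 38.7 and 38.6 exon CPM in parent cells with DMSO. With camptothecin ORC3 had 33.5, 35.0 and 34.0 exon CPM in knockout cells and 39.3, 38.6 and 40.1 exon CPM in parent cells. Again parent DMSO replicate 1 was highest. ORC3 was lower by 0.36 ± 0.10 (SE; edgeR adjusted p = 0.022), or -0.18 (edgeR adjusted p = 0.0236) without it. RFC5 was lower by 0.25 ± 0.07 (SE; edgeR adjusted p = 0.0343), or -0.16 (edgeR adjusted p = 0.0324) without it. WDHD1 had 104.5, 102.6 and 94.4 exon CPM in knockout cells with DMSO, against 124.2, 108.8 and 113.1 exon CPM in parent cells with DMSO. With camptothecin WDHD1 had 112.2, 116.4 and 109.2 exon CPM in knockout cells and 120.5, 120.9 and 118.4 exon CPM in parent cells. Its untreated groups did not overlap. WDHD1 was lower by 0.20 ± 0.06 (SE; edgeR adjusted p = 0.0403) and MCM5 by 0.18 ± 0.06 (SE; edgeR adjusted p = 0.0388), and each call was lost in 8 of the 12 fits that left out 1 library. Without parent DMSO replicate 1 WDHD1 was at -0.14 (edgeR adjusted p = 0.0274) and MCM5 at -0.15 (edgeR adjusted p = 0.0106). GINS4 had 38.1, 40.03 and 39.4 exon CPM in knockout cells with DMSO, against 43.4, 47.8 and 47.7 exon CPM in parent cells with DMSO. With camptothecin GINS4 had 50.4, 52.7 and 42 exon CPM in knockout cells and 65.1, 62.1 and 62.5 exon CPM in parent cells. Untreated knockout libraries were the lowest of the 4 groups. GINS4 was lower by 0.24 ± 0.08 (SE; edgeR adjusted p = 0.0408), but with reads unique to the gene it was higher by 0.16 (edgeR adjusted p = 0.612). CDC7 was lost in 9, GINS4 in 9, RFC5 in 5 and ORC3 in 2 of those 12 fits. Over them 1 to 13 genes were lower and 0 or 1 was higher. The count of lower genes was 13 without parent DMSO replicate 2. It was 1 to 4 when any 1 knockout DMSO or parent camptothecin library, or knockout camptothecin replicate 1 or 2, was left out. CDT1 was the higher gene in the fits that had one. Fitted on the 2 untreated groups alone, 0 genes were higher and 1 was lower. With library size alone 3 were lower, and 72.7% of all called genes were higher, against 52.6% with TMM. This comparison and the parent response share the parent DMSO libraries.

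Intron reads come from RNA that is not yet spliced, and on these too more of the genes rose than fell. In knockout cells 23 of the 49 genes rose and 1 fell on intron reads (7.85% and 9.05% of the 19908 genes tested), and in parent cells 17 rose and 3 fell (12.1% and 14.2%). FEN1 is among the knockout rises, but 0 of its intron bases are free of other genes, so its intron reads can be theirs. The median log2 change was 0.20 in knockout cells and 0.17 in parent cells, against 0.00 over all genes in both. CHAF1B had 53.01, 51.5 and 42.5 intron CPM in knockout cells with camptothecin, against 33.7, 33.0 and 29.6 intron CPM in knockout cells with DMSO. In parent cells it had 54.02, 56.2 and 53.5 intron CPM with camptothecin, against 37.4, 38.9 and 34.1 intron CPM with DMSO. Its groups were apart in both genotypes, and its intron reads rose by 0.61 ± 0.09 (SE; edgeR adjusted p = 6.97e-05) in knockout cells and 0.56 ± 0.09 (SE; edgeR adjusted p = 6.01e-05) in parent cells. DBF4 had 82.0, 81.6 and 79.5 intron CPM in knockout cells with camptothecin, against 116.5, 113.2 and 107.4 intron CPM in knockout cells with DMSO. In parent cells DBF4 had 77.4, 80.5 and 86.6 intron CPM with camptothecin, against 128.7, 120.2 and 120.3 intron CPM with DMSO. Here parent DMSO replicate 1 was close to its group, unlike in exon reads. DBF4 intron reads fell by 0.47 ± 0.07 (SE; edgeR adjusted p = 3.84e-05) in knockout cells and 0.59 ± 0.07 (SE; edgeR adjusted p = 6.74e-07) in parent cells. PRIM1 and ORC2 also fell on intron reads in parent cells, by 0.35 ± 0.10 (SE; edgeR adjusted p = 0.00962) and 0.25 ± 0.07 (SE; edgeR adjusted p = 0.0108). The PRIM1 call was lost without parent camptothecin replicate 3, and the ORC2 call without parent camptothecin replicate 1 or 3. Parent cells had 10 risen genes without parent camptothecin replicate 2, 11 without parent camptothecin replicate 1 or parent DMSO replicate 2, 5 fallen genes without parent DMSO replicate 1 and 1 without parent camptothecin replicate 3. The response of intron reads differed between genotypes for POLA1, by 0.47 ± 0.11 (SE; edgeR adjusted p = 0.0101) (knockout minus parent; 3% of all genes were higher), and for MCM5, by -0.33 ± 0.10 (SE; edgeR adjusted p = 0.049) (2.81% were lower). The MCM5 call was lost in 10 of 12 fits that left out a library, and POLA1 in 0. Scaled with the exon library sizes both were lost. Scaled by library size alone, 29 rose and 1 fell in parent cells, with the median of all genes being 0.12 and that of the replication genes 0.29. The share of all called genes that were higher was then 70.4% in knockout cells (46.5% with TMM), 69.5% in parent cells (45.9% with TMM) and 73.6% before treatment (55.9% with TMM). Before treatment 5 genes, ORC2, ORC5, GMNN, GINS4 and RFC1, were lower on intron reads in knockout cells (6.43% of all genes). None was higher by edgeR (8.17% of all genes were), and 2 were at an unadjusted p below 0.05. GMNN had the largest of these differences, with a log2 value of -0.42 ± 0.10 (SE; edgeR adjusted p = 0.004), or -0.25 (edgeR adjusted p = 0.0104) without parent DMSO replicate 1. The calls on ORC2, ORC5, GINS4 and RFC1 were lost in 3, 5, 3 and 5 of 12 fits that left out a library. The count was 9 without knockout camptothecin replicate 3, 3 without knockout DMSO replicates 1 or 2 or parent camptothecin replicate 2, 2 without parent DMSO replicate 1 and 1 without knockout DMSO replicate 3.

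For part of the genes exon and intron reads did not move together, as tested in 1 model of both kinds of read on the 17351 genes that passed both filters. POLA1 had 275.5, 272.5 and 333.6 intron CPM in knockout cells with camptothecin, against 214.8, 222.7 and 210.8 intron CPM in knockout cells with DMSO. In parent cells POLA1 had 223.6, 233.1 and 252.5 intron CPM with camptothecin, against 239.6, 240.2 and 240.9 intron CPM with DMSO. Its intron reads were higher in every treated knockout library and overlapped between the parent groups, while its exon reads were lower in both. The exon change of POLA1 minus its intron change was -0.93 ± 0.08 (SE; edgeR adjusted p = 2.47e-06) in knockout cells and -0.58 ± 0.08 (SE; edgeR adjusted p = 0.000142) in parent cells. RFC3 had 299.8, 299.5 and 361.3 intron CPM in knockout cells with camptothecin, against 210.7, 205.2 and 187.3 intron CPM in knockout cells with DMSO. In parent cells RFC3 had 299.0, 299.5 and 310.6 intron CPM with camptothecin, against 214.5, 218.3 and 224.8 intron CPM with DMSO. All treated libraries were higher, and the intron rise was 0.67 ± 0.07 (SE; edgeR adjusted p = 1.6e-06) in knockout cells and 0.47 ± 0.07 (SE; edgeR adjusted p = 5.81e-05) in parent cells. The exon change of RFC3 minus its intron change was -0.54 (edgeR adjusted p = 0.000596) in knockout cells and -0.26 (edgeR adjusted p = 0.0353) in parent cells. RPA3 showed the same order, with -0.57 (edgeR adjusted p = 0.00607) in knockout cells and -0.46 (edgeR adjusted p = 0.0115) in parent cells. The parent call was lost in 6 of 12 fits that left out a library for RFC3, and without parent camptothecin replicate 3 for RPA3.

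Other genes gained more on exons than on introns. CDT1 had 39.02, 40.9 and 32.1 intron CPM in knockout cells with camptothecin, against 42.3, 35.2 and 38.9 intron CPM in knockout cells with DMSO. In parent cells CDT1 had 34.0, 26.8 and 29.0 intron CPM with camptothecin, against 31.2, 39.6 and 34.1 intron CPM with DMSO. The treated and untreated intron levels of CDT1 overlapped in knockout cells, and in parent cells too. Its exon change exceeded its intron change by 0.89 ± 0.12 (SE; edgeR adjusted p = 9.12e-05) in parent cells and 0.45 ± 0.12 (SE; edgeR adjusted p = 0.0289) in knockout cells. ORC1 exceeded it by 0.61 (edgeR adjusted p = 4.77e-05) in parent cells and 0.35 (edgeR adjusted p = 0.00777) in knockout cells. The knockout call on CDT1 was lost in 4 of 12 fits that left out a library, and that on ORC1 without knockout DMSO replicate 1. In knockout cells 5 genes passed higher (ORC1, CDT1, MCM5, GINS2, PCNA) and 5 lower (ORC5, POLA1, RFC3, RPA3, TIMELESS), where 2.1% and 5.24% of all genes did. In parent cells 9 passed higher (ORC1, ORC6, CDC6, CDT1, GMNN, RECQL4, POLA2, POLE, RFC2) and 6 lower (ORC3, CDC45, POLA1, POLD2, RFC3, RPA3), where 8.71% and 10.2% did. Without parent DMSO replicate 1, 10 passed higher and 7 lower in knockout cells, and 14 and 4 in parent cells. In knockout cells the higher count was 0 to 2 without knockout camptothecin replicate 1 or 3 or any knockout DMSO library, and the lower count was 3 without knockout camptothecin replicate 1 or knockout DMSO replicate 1. In parent cells the lower count was 3, 3 and 1 without parent camptothecin replicates 1, 2 and 3. With exon library sizes used for both kinds of read, 0 passed higher in knockout cells, while the calls on POLA1, RFC3 and RPA3 there remained. The share of reads in introns was 30.35% to 33.55% in knockout cells with camptothecin, against 28.65% to 29.7% with DMSO, and 28.74% to 29.79% in parent cells with camptothecin, against 26.31% to 30.32% with DMSO. Its part in these differences was not tested.

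**Figure D4:**
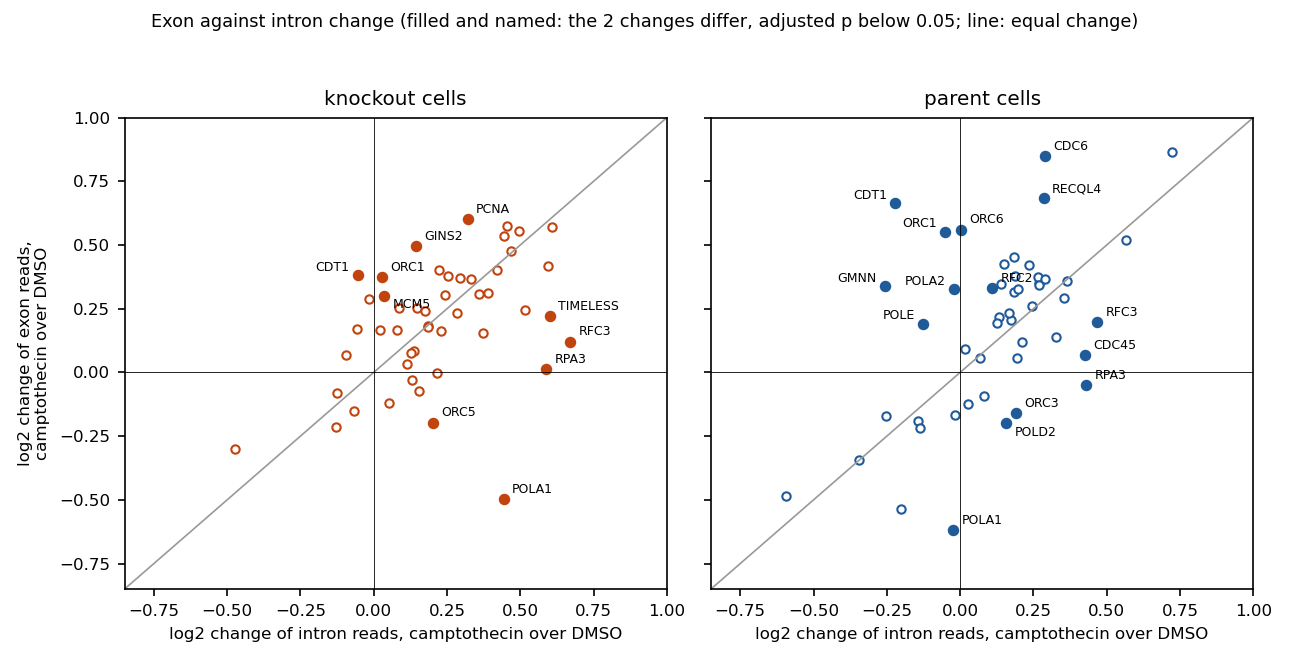
Log2 change of exon reads (vertical) against log2 change of intron reads (horizontal), camptothecin over DMSO, for the 49 genes in knockout cells (left) and parent cells (right). The line marks equal change, and filled, named genes are those whose exon and intron changes differed by the test. POLA1 lies far below the line in both panels, with exon changes of -0.50 and -0.62.

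Longer genes tended to have lower exon changes. Across the 49 genes, Spearman's rho between gene length and log2 change of exon reads was -0.488 in knockout cells and -0.374 in parent cells, against -0.116 and -0.122 across all genes. For intron reads it was 0.152 and 0.0798. These are descriptions across genes, which share the same libraries and are not independent replicates. The 4 genes over 100 kb are POLA1 (303 kb), POLD3 (175 kb), RFC3 (149 kb) and GINS3 (111 kb). Gene length here is the span listed with the deposited counts. That span can be longer than the transcript made, for GINS3 among others, and this was not checked. POLA1 fell on exon reads and the other 3 did not. Over all tested genes, the 2729 longer than 100 kb had a median exon change of -0.17 in knockout cells and -0.28 in parent cells, against 0.04 and 0.05 for shorter genes.

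**Figure D5:**
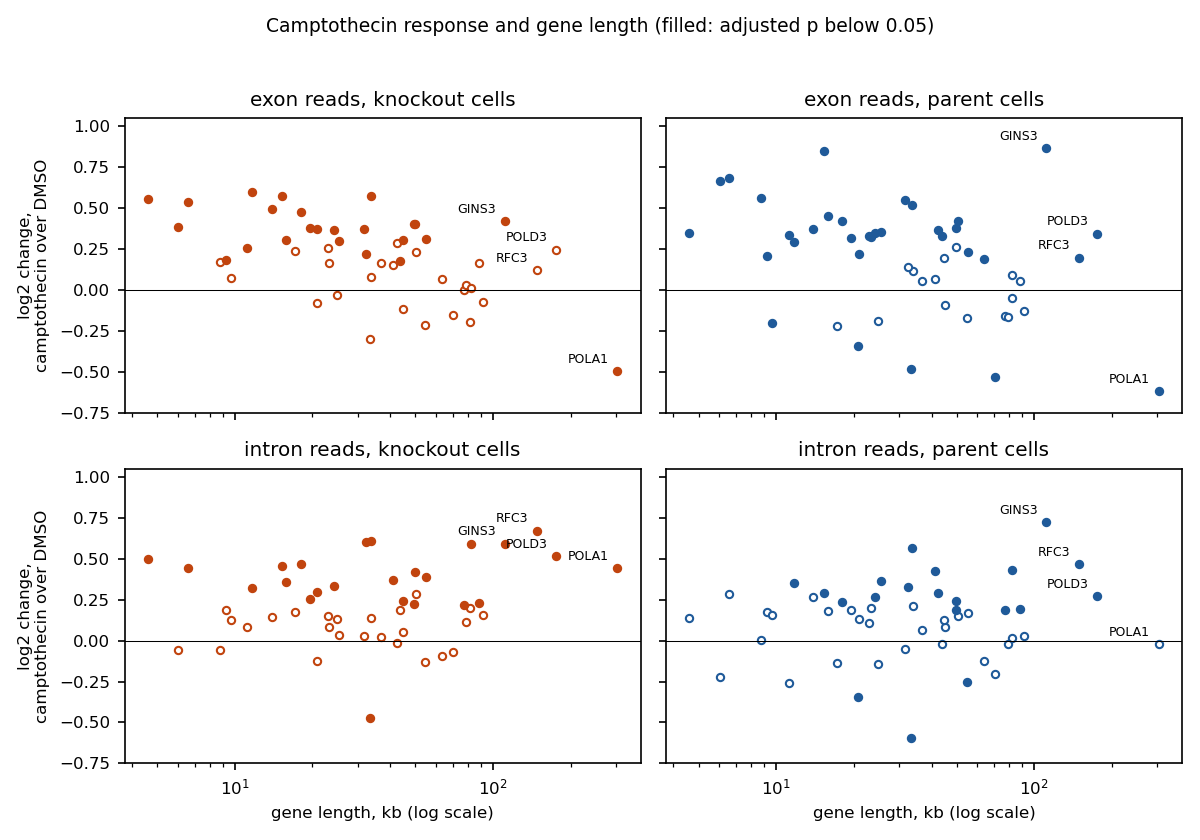
Log2 change, camptothecin over DMSO, against gene length in kb (log axis) for exon reads (top) and intron reads (bottom) in knockout cells (left) and parent cells (right), 1 point per gene. POLA1, the longest at 303 kb, is the lowest exon point in both genotypes.

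Among 33 further replication factors, in knockout cells 6 rose and 3 fell, where 7.3% of all genes rose and 9.28% fell, with a median log2 change of 0.11 against 0.02 over all genes. In parent cells 14 rose and 5 fell, where 16.8% of all genes rose and 17.1% fell, with a median of 0.12 against 0.01. PRIM2, the large primase subunit and partner of PRIM1, fell by 0.66 ± 0.06 (SE; edgeR adjusted p = 5.12e-07) in knockout cells and 0.84 ± 0.06 (SE; edgeR adjusted p = 1.12e-08) in parent cells. When reads over the whole gene were counted, the knockout change of PRIM2 was 0.09. TONSL, which acts in the repair of stalled forks, rose by 0.51 ± 0.08 (SE; edgeR adjusted p = 0.000171) in knockout cells and 0.85 ± 0.08 (SE; edgeR adjusted p = 2.42e-07) in parent cells. RNASEH2B, a subunit of the enzyme that removes ribonucleotides from DNA, fell by 0.51 ± 0.07 (SE; edgeR adjusted p = 9.48e-05) and 0.62 ± 0.07 (SE; edgeR adjusted p = 4.09e-06), in knockout and then parent cells. DONSON, a fork component, rose by 0.42 ± 0.08 (SE; edgeR adjusted p = 0.00169) in knockout cells. SUPT16H, a subunit of the histone chaperone FACT, fell by 0.67 ± 0.13 (SE; edgeR adjusted p = 0.000824) in parent cells. It had 332.0, 335.2 and 317.7 exon CPM in knockout cells with camptothecin, against 328.3, 333.7 and 326.3 exon CPM in knockout cells with DMSO. In parent cells it had 248.3, 241.4 and 249.4 exon CPM with camptothecin, against 510.3, 326.9 and 338.0 exon CPM with DMSO. Parent DMSO replicate 1 was far above the other 11 libraries, and without it the parent change of SUPT16H was -0.43 (edgeR adjusted p = 1.05e-09). Before treatment 1 of the 33 passed on exon reads, DNMT1, the maintenance DNA methyltransferase, which was higher in knockout cells by 0.21 ± 0.06 (SE; edgeR adjusted p = 0.0336), a call lost in 10 of 12 fits that left out a library. Without parent DMSO replicate 1 DNMT1 was higher by 0.29 (edgeR adjusted p = 3.48e-06).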

How the data were processed

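Total RNA of 12 libraries was sequenced in a single paired-end run, per the labels' protocols. The authors deposited whole-number counts of reads over each gene, its exons and its introns, per the file headers, with alignments that the table names mark as sorted and freed of duplicates. Counts of more than 6 digits carry 6 significant digits. The deposited TPM values were not used. The deposited lengths of genes and exons, which are not read counts, gave levels per kilobase. Per the submitters' processing notes, hg19 was the genome build, and Picard 2.9.2, STAR 2.5.4a, Trimmomatic 0.39 and Trim Galore 0.6.2 are among the tools. For the counting tool, its annotation and its strand setting, the entry is: not given in the sources used here. Exon and intron counts may therefore include reads of overlapping genes. Deposited counts of reads unique to a gene were used as an alternative. Removal of duplicates without molecular identifiers lowers counts of abundant, short transcripts. Gene coordinates are the files' own (hg19). Promoter sequences are from RefSeq (GRCh38.p14).

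Genes absent from a table were given 0 reads, and Y copies of pseudoautosomal genes were left out, up to 32 per table. The fit used edgeR 4.0.16 in R 4.3.3 (filterByExpr, TMM, quasi-likelihood with robust prior, prior count 2, a mean per group over all 12 libraries), on exon and on intron counts, with an adjusted p below 0.05 over all genes tested as the call. The exon minus intron model had a block for each library. The common dispersion of exon counts was 0.0137 (a biological coefficient of variation of 11.7%). An SE is the unshrunken log2 change over the root of the F statistic, so it restates the test. Levels are TMM-scaled CPM. The steps were tested on simulated counts. Alternatives were library-size scaling, DESeq2 1.42.0 size factors and Wald test, no filter, fits of the groups compared alone, unique or total gene reads, exon library sizes for introns, a replicate block, and leaving out each library.

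1 further marker list is not reported here. The 49 genes and all lists were chosen with earlier results of these data known. Named with all values were, per treatment comparison, the 6 largest rises and all falls among called genes (at most 6), all called in the other comparisons (at most 8 each), and always CDC6, CDT1, MCM2, MCM10, PCNA, POLA1 and GINS3.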

Additional observations from a re-analysis of the deposited data

Results flagged for a closer look

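The camptothecin response differed between knockout and parent cells, by an edgeR test of the difference itself, for the genes that follow. Each value is a log2 difference, knockout response minus parent response. On exon reads GINS3 differed by -0.45 ± 0.10 (SE; edgeR adjusted p = 0.0092), with rises in both genotypes, and ORC6 by -0.39 ± 0.08 (SE; edgeR adjusted p = 0.0085). RFC4 differed by 0.46 ± 0.13 (SE; edgeR adjusted p = 0.047), RPA1 by 0.38 ± 0.10 (SE; edgeR adjusted p = 0.0252) and PCNA by 0.31 ± 0.09 (SE; edgeR adjusted p = 0.0464). These 3 calls were lost in 8, 5 and 9 of the 12 fits that left out a library, and those on GINS3 and ORC6 in 0. With reads over the whole gene the calls on RFC4 and PCNA were lost too. Among the further replication factors, SUPT16H, a FACT subunit, differed by 0.66 ± 0.18 (SE; edgeR adjusted p = 0.0394), a call lost in 9 of 12 fits that left out a library, and by 0.43 (edgeR adjusted p = 1.65e-06) without parent DMSO replicate 1. TRAIP, a ubiquitin ligase that acts on stalled replisomes, differed by -0.40 ± 0.09 (SE; edgeR adjusted p = 0.0151), lost in 2 of 12 fits. On intron reads POLA1 differed by 0.47 ± 0.11 (SE; edgeR adjusted p = 0.0101) and MCM5 by -0.33 ± 0.10 (SE; edgeR adjusted p = 0.049). The MCM5 call was lost in 10 of 12 fits that left out a library, and both calls were lost with exon library sizes. PRIM2 differed by 0.45 ± 0.10 (SE; edgeR adjusted p = 0.00723) on intron reads, and MMS22L, the partner of TONSL, by 0.37 ± 0.09 (SE; edgeR adjusted p = 0.022). The MMS22L call was lost in 5 of 12 fits that left out a library. The PRIM2 call was lost in 0 of them, and in 1 of 4 fits with other processing. Parent DMSO replicate 1 enters every one of these differences, and without it RFC4 differed by 0.30 (edgeR adjusted p = 0.00212). RPA1 then differed by 0.34 (edgeR adjusted p = 0.00114) and PCNA by 0.28 (edgeR adjusted p = 0.00198).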

How the results depend on the processing

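Counts are of the 49 genes, higher and lower, and the causes of the shifts were not tested. They are given without the counts over all genes in each setting, so a shift cannot be read as particular to these genes. Scaling by library size alone gave 37 risen genes in knockout cells on exon reads, 5 higher and 2 lower in the difference of responses and 3 lower before treatment. On intron reads it gave 29 and 1 in parent cells and 2 and 1 before treatment. With no filter on low counts, 2 genes fell in knockout cells and 0 were higher before treatment. DESeq2's Wald test gave 11 lower before treatment. Fits of the groups compared alone gave 4 fallen genes in knockout cells, and 0 higher and 1 lower before treatment. With exon library sizes, intron reads gave 0 and 0 in the difference of responses and 2 lower before treatment, and the exon minus intron model gave 0 higher in knockout cells and 2 lower in parent cells. Unique intron reads gave 8 lower before treatment. The signs that reversed were those of POLA1 in knockout cells with total gene reads (0.025) of GINS4 before treatment with unique exon reads (0.16), and, among the further factors, of PRIM2 in knockout cells with total gene reads (0.088) and of MCM9 in knockout cells for exon minus intron with unique reads (-0.22). Leaving out 1 library at a time gave, on exon reads, 18 to 34 and 1 to 6 in knockout cells, 24 to 34 and 4 to 6 in parent cells, 0 to 4 and 2 to 10 in the difference, and 0 to 1 and 1 to 13 before treatment. On intron reads it gave 16 to 26 and 1 in knockout cells, 10 to 20 and 1 to 5 in parent cells, 1 to 2 and 0 to 1 in the difference, and 0 and 1 to 9 before treatment. For exon minus intron it gave 0 to 10 and 3 to 7 in knockout cells and 8 to 14 and 1 to 7 in parent cells. Every pair of libraries with the same replicate number in 2 groups correlated at -0.0323 to 0.0428 in their deviations. Pairs with unlike numbers lay at -0.0651 to 0.0477. No effect shared by number was seen, but these correlations cannot tell whether samples were handled in pairs. With a replicate block the exon counts were 25 and 1 in knockout cells, 28 and 5 in parent cells, 2 and 2 in the difference and 1 and 7 before treatment, and the intron counts were 23 and 1, 16 and 4, 1 and 1, and 0 and 6 in the same order. Depth was no narrow limit, since each gene had 938 to 74660 exon reads and 157 to 10528 intron reads in a library.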

Other observations

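Set per kilobase of exon (exon CPM per kb), the scale on which levels of different genes can be compared, PCNA was the most abundant of the 49 at a mean of 397.7 over the 12 libraries, followed by MCM7 at 157.2, MCM3 at 111.3 and FEN1 at 92.3. ORC4 was the least abundant at 3.12. Subunits of 1 complex were not at 1 level. The 6 MCM2-7 genes ran from 54.8 (MCM5) to 157.2 (MCM7), and the 5 RFC genes from 21.0 (RFC3) to 33.6 (RFC2). The GINS genes ran from 8.01 (GINS3) to 30.1 (GINS1), and the RPA genes from 16.03 (RPA3) to 35.7 (RPA2). Origin recognition genes spread the widest of these 5 complexes, from 3.12 (ORC4) to 37.7 (ORC1), a ratio of 12.1. Exon length here covers every annotated exon of a gene, so a gene with many unused exons reads low, and FEN1 shares most of its exon bases with other genes.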
